A study of Rattus norvegicus with 23 samples.

Results

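The comparison described here sets 5 femur libraries from semaglutide-treated rats of an osteoporosis model against 5 femur libraries from saline-treated rats of the same model, 10 of the 23 libraries of the series. Members were taken by their titles, which name the drug or saline, and every gene of the deposited count table was considered. The rats were female Wistar rats. The model, named MetOP in the labels and read here as metabolic osteoporosis, combines a high-fat diet with L-NAME, which blocks nitric oxide synthases, and both groups carry it. Rats of the first group received semaglutide and those of the other saline. The titles of both groups carry a second diet abbreviation (lfd) that the labels do not explain, and no label gives a dose, an age or a duration. All libraries carry the same batch label. Whether each library stands for its own rat is not stated in the labels, so the p-values below reflect only how far these samples differ, which may be technical. The other 13 libraries entered the fit to estimate the spread. They come from model rats given PYY3-36 (4 libraries, called PYY here) or both drugs (5 libraries) and from healthy controls (4 libraries). Titles of the PYY group also name saline. Titles of the healthy controls read standard, saline and oLN, where the model titles read hfd, lfd and LN. The controls thus differ from the model groups in the diet label as well as the LN label. Below, these 13 libraries serve to place single genes and to count the genes that differed between semaglutide and each of these groups. The series title names the subject as the effect of these drugs on osteoporosis that is already present.

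Semaglutide is a long-acting agonist of the GLP-1 receptor that lowers food intake and body weight. Bone is renewed by osteoblasts, which lay down type I collagen and mineralize it, by osteocytes, which osteoblasts become once they are buried in the matrix, and by osteoclasts, multinucleated cells of the macrophage lineage that resorb it. A femur extract also holds growth plate cartilage, blood-forming marrow, fat, vessels and any muscle left on the bone. In such bulk RNA, fewer cells of a type and less RNA per cell cannot be told apart.

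With semaglutide, genes of bone matrix, osteoclasts, cartilage, cell division and red cell formation had lower mean levels. Genes of muscle and nuclear genes of mitochondrial fuel use had higher mean levels, while mitochondrially encoded genes had lower ones. Of 22 fast-fibre and 15 slow-fibre muscle genes, 0 had an unadjusted p under 0.05. No single gene passed the test after adjustment. Of 15271 genes tested by edgeR's quasi-likelihood test with Benjamini-Hochberg adjustment, 0 had an adjusted p under 0.05 (0.0% of genes), and the lowest adjusted p was 0.0913. At an unadjusted p under 0.05, 1106 genes were lower with semaglutide (7.24% of genes) and 638 were higher (4.18%). The lower count was 731 without A238, and the higher count was 361 without A229 and 425 without A238. In 268 genes (1.75%) all 5 semaglutide libraries lay below all 5 saline libraries, and in 414 genes (2.71%) they all lay above. These shares are the background for every count below. DESeq2 called 76 genes lower (0.563% of the 13493 genes to which it gave an adjusted p) and 4 higher (0.0296%), while limma voom called 0 (1022 lower and 643 higher at an unadjusted p under 0.05). The gene lists used below were chosen with earlier results of these data known, so their counts and medians are descriptions.

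The groups do not contain uniform libraries. Totals ran from 20502726 to 29654996 counts in the semaglutide libraries and from 26628359 to 32105866 counts in the saline libraries. The TMM factors of saline libraries A229 and A265, 0.5621 and 0.5611, were the lowest of the 10, which raises their scaled levels relative to the raw counts. Mitochondrially encoded genes took 54.4 to 67.4% of counts with semaglutide and 65.6 to 83.9% with saline. Levels are given as CPM (counts scaled to the same library total) after TMM scaling, in the order A238, A240, A241, A242 and A243 for semaglutide and A224, A226, A229, A232 and A265 for saline. Saline library A265 lay close to the semaglutide libraries in bone and cartilage genes. Saline library A224 was the highest of all 10 in bone genes. Among the semaglutide libraries, A242 had the highest osteoblast genes and the least fast muscle, and A241 had the most neutrophil, osteoclast and dividing-cell RNA.

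Osteoblast matrix and mineralization genes had the lowest median of the osteoblast, osteocyte and osteoclast lists. Of 21 genes tested, 18 had lower and 3 higher mean levels, with a median log2 fold change (semaglutide minus saline) of -1.92, against -0.04 over all genes. At an unadjusted p under 0.05, 13 were lower and 0 higher, and DESeq2 called 8 of them lower. That count stayed between 13 and 14 when each of the 10 libraries was left out in turn, but was 2 after 2 surrogate variables were fitted. The first of these variables ran from -0.288 to -0.0341 in semaglutide libraries and from -0.0518 to 0.247 in saline libraries. It thus partly follows the groups, and fits that hold it also take out part of the group difference. The list took 0.203 ± 0.117% of counts outside the mitochondrial genes with semaglutide and 1.36 ± 1.17% with saline (SD, n = 5 each). An exact two-sided permutation test over the libraries gave p = 0.0159, or 0.0555 after adjustment over the 7 shares compared, and the unadjusted p lay between 0.00794 and 0.0635 when 1 library was left out. The difference in share was -1.16 percentage points, and -0.669 without A224.

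Col1a1, on chromosome 10 at 79883622 to 79900624 (mRatBN7.2, as are all gene coordinates here), encodes the main chain of type I collagen. It had 135.3, 93.6, 111.3, 292.6 and 70.3 CPM in the semaglutide libraries, against 2934, 888.1, 896.6, 644.6 and 137.8 CPM in the saline libraries. Saline library A265 lay among the semaglutide values, and semaglutide library A242 was the highest of its group. The log2 fold change was -2.97 ± 0.87 (SE; adjusted p = 0.371 by edgeR, 0.0381 by DESeq2). Leaving out 1 library at a time moved it between -3.42 and -2.19. Its partner chain Col1a2 had a log2 fold change of -2.83 ± 0.83.

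Genes of noncollagenous proteins that bind mineral separated the groups in a similar way. Ibsp, bone sialoprotein, on chromosome 14 at 5439829 to 5452693, had 9.47, 12.5, 30.5, 28.9 and 6.32 CPM with semaglutide, against 453, 131, 274, 138 and 27.0 CPM with saline. Only saline library A265 overlapped the semaglutide range, and the log2 fold change was -3.55 ± 0.85 (SE; adjusted p = 0.371 by edgeR, 0.0105 by DESeq2). Dmp1, a matrix protein of osteocytes encoded beside it at 5528431 to 5539323, had 3.01, 6.65, 5.41, 11.01 and 6.01 CPM with semaglutide. The saline libraries had 53.1, 18.7, 45.8, 24.0 and 9.74 CPM of Dmp1, so the groups overlapped by A242 and A265 alone. For Dmp1 the log2 fold change was -2.24 ± 0.53 (adjusted p = 0.371 by edgeR, 0.0165 by DESeq2). Spp1, osteopontin, lay in the same stretch of chromosome 14 and had a log2 fold change of -3.21 ± 0.86. Alpl, the alkaline phosphatase that frees phosphate for mineral, had -2.42 ± 0.70, and Bglap, osteocalcin, had -1.92 ± 0.65. Sost, the osteocyte inhibitor of Wnt signalling, was scarce, at 1.35 ± 0.91 CPM with semaglutide and 1.75 ± 1.73 CPM with saline (SD, n = 5 each).

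**Figure D1:**
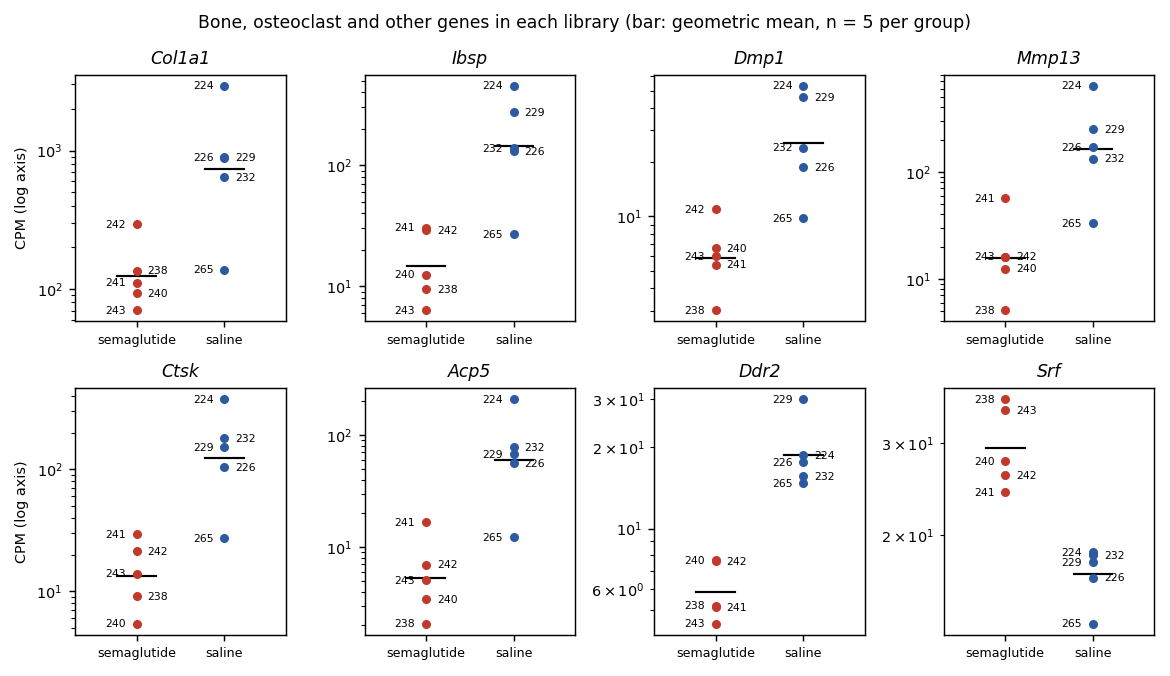
Levels of 8 genes in each library, in CPM on a log axis, for semaglutide (left) and saline (right). Points are libraries, labelled by the number in their name, and bars are geometric means. For Ddr2 and Srf the groups do not overlap, while for Col1a1, Ibsp, Dmp1, Mmp13, Ctsk and Acp5 the lowest saline library, A265, reaches the semaglutide range.

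Per length, in the FPKM values the authors deposited, Col1a1, Col1a2 and Spp1 were more abundant than Bglap or Ibsp in the saline libraries. Col1a1 averaged 23.6 ± 15.7 FPKM with semaglutide and 183 ± 176 FPKM with saline (SD, n = 5 each). Spp1 averaged 22 ± 20.1 FPKM with semaglutide and 203 ± 184 FPKM with saline. The SD of the saline group came close to its mean in both, with A224 the highest and A265 the lowest library.

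Transcription factors of the osteoblast lineage showed the same pattern in 7 of 10 genes, with a list median of -1.26 and 4 genes lower at an unadjusted p under 0.05. Runx2, the factor that commits cells to the lineage, had 1.84, 3.64, 8.60, 9.39 and 2.19 CPM with semaglutide, against 45.8, 15.3, 34.2, 18.1 and 6.29 CPM with saline. The 2 highest semaglutide libraries, A241 and A242, exceeded A265 and stayed below the other saline libraries. The log2 fold change was -2.22 ± 0.69 (adjusted p = 0.389). Sp7, which acts after Runx2, had a log2 fold change of -2.05 ± 0.77, Dlx5 had -1.98 ± 0.75 and Twist1 had -2.43 ± 0.91.

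Upstream sequences of 4 genes are shown because Runx2, lower on average with semaglutide, and Srf, higher, are DNA-binding factors with known motifs and these genes carry them. Each is the 250 bases before the RefSeq gene start in build GRCr8, 5′ to 3′ along the gene, with the motif in capitals. For Bglap (chr2:176137319-176137568, minus strand) and Mmp13 (chr8:12782579-12782828, plus strand) the capitals mark ACCACA, the reverse complement of the Runx letters TGTGGT. For Srf (chr9:21923826-21924075, plus strand) and Acta1 (chr19:68784195-68784444, minus strand) they mark the CArG box, which the Srf protein binds.
Bglap: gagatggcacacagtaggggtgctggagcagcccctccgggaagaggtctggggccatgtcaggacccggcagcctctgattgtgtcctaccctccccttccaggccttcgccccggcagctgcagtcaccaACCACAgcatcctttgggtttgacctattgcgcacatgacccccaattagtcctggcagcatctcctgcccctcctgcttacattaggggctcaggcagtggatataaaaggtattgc
Mmp13: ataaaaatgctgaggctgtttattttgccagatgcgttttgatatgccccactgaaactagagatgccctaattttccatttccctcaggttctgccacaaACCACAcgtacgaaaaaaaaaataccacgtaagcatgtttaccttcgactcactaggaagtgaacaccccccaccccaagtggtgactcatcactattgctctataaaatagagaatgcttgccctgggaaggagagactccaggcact
Srf: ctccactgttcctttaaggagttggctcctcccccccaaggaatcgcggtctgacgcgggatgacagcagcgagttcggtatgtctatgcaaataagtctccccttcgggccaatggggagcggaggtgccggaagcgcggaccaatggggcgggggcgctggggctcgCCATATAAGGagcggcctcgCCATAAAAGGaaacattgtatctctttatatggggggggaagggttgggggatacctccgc
Acta1: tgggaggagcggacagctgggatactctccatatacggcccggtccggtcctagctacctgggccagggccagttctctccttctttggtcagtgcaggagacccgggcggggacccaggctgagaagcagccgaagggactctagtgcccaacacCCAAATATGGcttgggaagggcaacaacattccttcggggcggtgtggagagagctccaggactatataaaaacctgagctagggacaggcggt
The match began 118 bases before the start of Bglap and 149 before that of Mmp13, and the Srf boxes began 81 and 61 bases before its start. On either strand, the Runx letters were in 14.5% of all 33469 upstream windows of that length and in 3 of the 14 windows matched to the osteoblast matrix list. The CArG box was in 1.5% of all windows and in 7 of 21 windows matched to the list of SRF targets. That list holds known SRF targets and Srf itself, so its share of boxes is no result of this comparison. A match is a description of letters and not a bound site.

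Osteoclast genes were lower together with those of the osteoblast. Of 22 tested, 21 had lower means with semaglutide, the median log2 fold change was -1.31, and 10 were lower at an unadjusted p under 0.05 with 0 higher. DESeq2 called 4 of them lower. Without semaglutide library A241 the list median was -2.21, and without saline library A224 the count at an unadjusted p under 0.05 was 7. That count was 11 without A265 and 9 without A242.

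Ctsk, cathepsin K, the protease that osteoclasts use on collagen, is on chromosome 2 at 183058569 to 183069550. It had 9.16, 5.45, 29.3, 21.2 and 13.9 CPM with semaglutide, against 376, 104, 152, 181 and 27.3 CPM with saline, with A265 again the only saline library in the semaglutide range. The log2 fold change was -3.41 ± 0.84 (adjusted p = 0.371 by edgeR, 0.0027 by DESeq2). Acp5, the tartrate-resistant acid phosphatase used to stain osteoclasts, is on chromosome 8 at 20663985 to 20667929. It had 2.07, 3.41, 16.8, 6.95 and 5.03 CPM with semaglutide, against 209, 55.8, 67.8, 77.8 and 12.2 CPM with saline. Its log2 fold change was -3.63 ± 0.89, and A241 was the semaglutide library that overlapped A265. Ckb, the brain-type creatine kinase that osteoclasts carry, had 3.56, 6.74, 8.91, 9.46 and 4.35 CPM with semaglutide, against 63.6, 21.6, 28.0, 24.0 and 14.2 CPM with saline. Its groups did not overlap (log2 fold change -2.20 ± 0.54). Tm4sf19, a tetraspanin-like membrane protein, had at most 0.177 CPM with semaglutide and at least 1.39 CPM with saline.

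Mmp9, a gelatinase of both osteoclasts and neutrophils, had 4 semaglutide libraries below all saline libraries, but A241 lay within the saline range. It had 1.88, 6.47, 53.1, 7.28 and 2.99 CPM with semaglutide, against 90.0, 30.5, 23.2, 41.0 and 8.66 CPM with saline, and its highest semaglutide library was A241. Its log2 fold change of -1.43 (unadjusted p = 0.191 by edgeR) was -3.06 without A241 and -0.85 without A224. Nfatc1, the master factor of osteoclast formation, averaged 9.90 ± 2.93 CPM with semaglutide and 7.27 ± 0.95 CPM with saline (log2 fold change 0.44 ± 0.23, adjusted p = 0.449), unlike the resorption genes.

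Of 19 genes that signal to osteoclasts, 17 had lower means with semaglutide, with a median of -0.43 and 3 lower at an unadjusted p under 0.05, or 1 without A224 and 6 without A241. Tnfrsf11b, osteoprotegerin, a decoy that blocks RANKL, had a log2 fold change of -3.18 ± 1.22, and Tnfrsf11a, the receptor RANK, had -2.01 ± 0.78, or -1.08 without A224, which held 7.88 CPM. Tnfsf11, RANKL itself, averaged 0.82 ± 0.90 CPM with semaglutide and 1.00 ± 1.21 CPM with saline (SD, n = 5 each). At that level its log2 fold change of -0.30 ± 1.34 does not give a direction. The macrophage growth factor Csf1 had -0.90 ± 0.49, and its receptor Csf1r had -1.63 ± 0.73, or -2.53 without A241.

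Growth plate cartilage had the lowest median of all 51 lists, at -5.27. All 24 tested genes were lower, 21 at an unadjusted p under 0.05, and DESeq2 called 5. The values show that this difference rests on part of the saline group. Col2a1, the main cartilage collagen, on chromosome 7 at 129098786 to 129127546, had 6.18, 30.1, 46.1, 2.73 and 0.401 CPM with semaglutide, against 2834, 957.7, 1322, 28.3 and 13.1 CPM with saline. Saline libraries A224, A226 and A229 were high, and A232 and A265 lay within the semaglutide range. In Acan, the aggrecan core protein, A265 lay within the semaglutide range and A232 just above it, with at most 3.997 CPM with semaglutide and with 241.2, 103, 98.6, 5.79 and 2.60 CPM with saline. Its log2 fold change of -5.90 ± 1.98 had an adjusted p of 0.389. The hypertrophic collagen Col10a1 had 139, 47.1, 19.1, 1.59 and 0.908 CPM with saline and at most 1.75 CPM with semaglutide. In mean list level, A232 (0.05) and A265 (-0.26) lay below the highest semaglutide library, A241 (0.40), on the log2 CPM scale. The count at an unadjusted p under 0.05 was 12 without A224, 7 by limma voom and 0 with 2 surrogate variables. How much growth plate entered each extract was not tested.

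**Figure D2:**
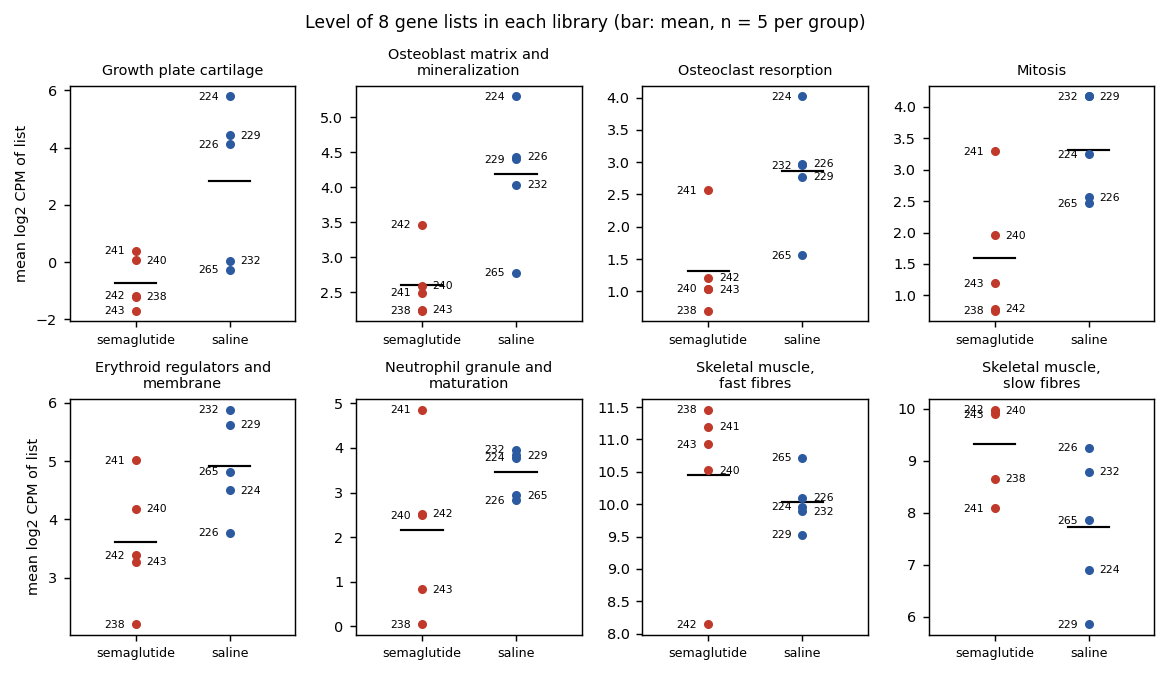
Mean log2 CPM of 8 gene lists in each library, semaglutide at left and saline at right, with a bar at the group mean (n = 5 each). Cartilage splits the saline libraries into 3 high and 2 low ones, and A242 is the lowest of all libraries in fast muscle, at 8.15.

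Genes that fold and cross-link collagen, cut matrix or coat fibrils were lower in smaller steps. Of 26 folding and cross-linking genes, 21 had lower means, with a median of -1.02, 13 lower at an unadjusted p under 0.05 and 1 higher. Ppib, a prolyl isomerase that folds collagen in the secretory pathway, had 15.1, 15.0, 23.3, 16.2 and 15.9 CPM with semaglutide, against 54.3, 32.5, 40.6, 31.0 and 23 CPM with saline. Only A241 reached the lowest saline value, and the log2 fold change was -1.08 ± 0.30. The collagen chaperone Serpinh1 had -1.07 ± 0.44, the lysyl hydroxylase Plod2 -1.35 ± 0.55 and the chaperone Fkbp10 -2.13 ± 0.74. The count at an unadjusted p under 0.05 was 7 without saline library A224 and 8 without semaglutide library A241.

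Among 22 matrix metalloproteinases and inhibitors, 18 had lower means and 6 were lower at an unadjusted p under 0.05, or 3 without A224, A240 or A243. Their median of -0.98 was 0.03 with 2 surrogate variables. Mmp13, collagenase-3 of hypertrophic chondrocytes and osteoblasts, had 5.09, 12.4, 56.4, 16.1 and 16.1 CPM with semaglutide, against 637, 170, 250, 133 and 33.1 CPM with saline. A241 alone exceeded A265, and the log2 fold change was -3.52 ± 0.92 (adjusted p = 0.371 by edgeR, 0.0183 by DESeq2). Timp1, an inhibitor of these enzymes, had -2.58 ± 0.65. Mmp12, the macrophage elastase, had 0 counts in all 5 semaglutide libraries and 104 counts over 4 of the saline libraries. Set against a floor of 3 counts over the semaglutide group, it was at least 38.8-fold lower, and the floor covers counting error only. Small leucine-rich proteoglycans, which coat collagen fibrils, had a median of -1.26 with 14 of 15 genes lower, 8 of them at an unadjusted p under 0.05, or 4 without A224. Bgn, biglycan, had 21.6, 26.6, 32.9, 34.9 and 14.0 CPM with semaglutide, and the saline libraries began at 43.8 CPM in A265, above all of these. Its log2 fold change was -2.42 ± 0.65.

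Ddr2, a receptor tyrosine kinase that fibrillar collagen activates and that osteoblasts and chondrocytes carry, had the second smallest p of all genes. It lies on chromosome 13 at 82195463 to 82317363. It had 5.21, 7.67, 5.14, 7.58 and 4.47 CPM with semaglutide, against 18.7, 17.5, 30.0, 15.6 and 14.7 CPM with saline. Every semaglutide library lay below every saline library, A265 included. The log2 fold change was -1.68 ± 0.30 (SE; unadjusted p = 1.2e-05, adjusted p = 0.0913 by edgeR, 0.000475 by DESeq2 and 0.0281 by limma voom with library weights). Leaving out 1 library at a time kept the log2 fold change between -1.78 and -1.47, with an edgeR adjusted p between 0.105 and 0.619. The weighted fit was chosen after seeing the data. Without weights, the lowest adjusted p of any gene by limma voom was 0.434.

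Set beside the other groups, Ddr2 with semaglutide was at the level of healthy femora. It averaged 6.01 ± 1.499 CPM with semaglutide, 32.5 ± 10.6 CPM with PYY, 16.1 ± 6.28 CPM with both drugs, 6.20 ± 2.57 CPM in healthy controls and 19.3 ± 6.19 CPM with saline (SD; n = 5, 4, 5, 4 and 5). The log2 difference of semaglutide from healthy controls was -0.05 ± 0.32 (adjusted p = 0.994). Against PYY it was -2.43 ± 0.32 (adjusted p = 0.0014), the 1 gene called in that comparison (0.00655% of genes). Against both drugs it was -1.42 ± 0.30 (adjusted p = 0.703), where 0 genes were called (0.0%, with 609 lower and 254 higher at an unadjusted p under 0.05). Against healthy controls 0 genes were called as well (0.0%, with 686 lower and 586 higher).

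Ibsp did not share that order. It averaged 17.5 ± 11.3 CPM with semaglutide, 150 ± 220 CPM with PYY, 32.3 ± 24.8 CPM with both drugs, 145 ± 74.9 CPM in healthy controls and 205 ± 164 CPM with saline. Its log2 difference between semaglutide and healthy controls was -3.05 ± 0.86 (unadjusted p = 0.0017, adjusted p = 0.442). The lowest healthy library had 78.0 CPM of Ibsp, above the highest semaglutide library at 30.5 CPM.

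**Figure D3:**
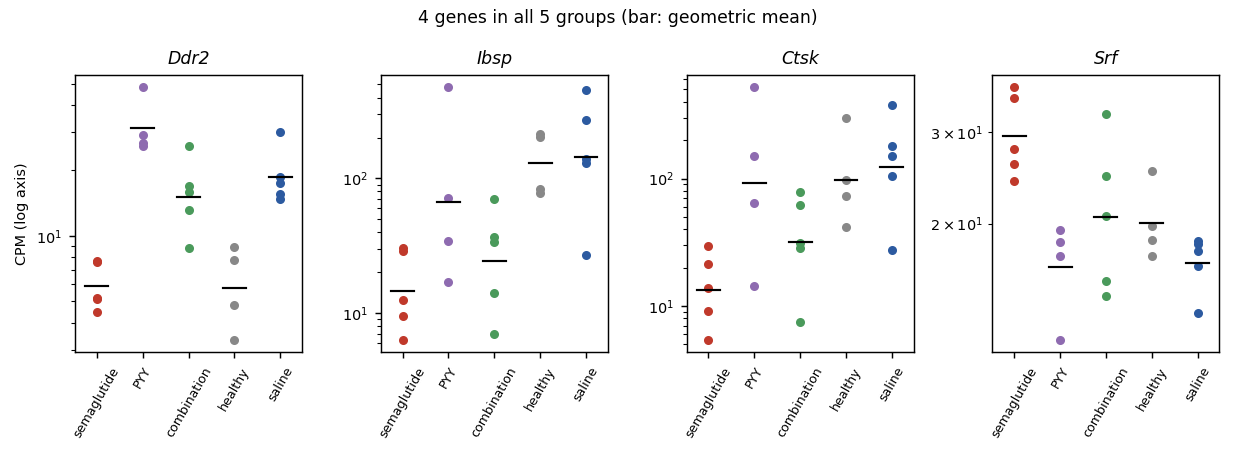
Levels of Ddr2, Ibsp, Ctsk and Srf in all 5 groups, in CPM on a log axis, with saline at the right. Points are libraries and bars geometric means. For Ddr2 the semaglutide and healthy groups overlap below all saline libraries, while for Ibsp all 4 healthy libraries lie above all 5 semaglutide libraries.

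Fibroblast and collagen VI genes were lower in part. Of 27 fibroblast and tendon genes, 22 had lower means and 8 were lower at an unadjusted p under 0.05, with a median of -0.75. That count was 5 without A224. Col6a3, a chain of the microfibrillar collagen VI, had 15.4, 15.7, 16.7, 27.6 and 15.4 CPM with semaglutide, against 187, 70.1, 89.7, 47.7 and 20.2 CPM with saline. A242 alone exceeded A265, and the other 4 semaglutide libraries lay close together. The log2 fold change was -2.19 ± 0.57 (adjusted p = 0.371 by edgeR, 0.0183 by DESeq2). Col3a1 had -1.96 ± 0.66.

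Genes of dividing cells were lower in each of the 3 lists that hold them. All 34 genes of replication licensing and S phase had lower means, with a median of -1.32 and 16 lower at an unadjusted p under 0.05, or 10 without A242. Of 24 mitosis genes 23 were lower, with a median of -1.49 and 15 at an unadjusted p under 0.05. Of 33 centromere genes 30 were lower, with a median of -1.32 and 13 at that threshold, or 8 without A232. Chaf1a, which loads histones behind the replication fork, had 1.68, 0.887, 1.83, 1.05 and 0.833 CPM with semaglutide, against 5.21, 4.92, 10.8, 4.92 and 3.27 CPM with saline. Its groups did not overlap (log2 fold change -2.21 ± 0.59, adjusted p = 0.371 by edgeR and 0.0303 by DESeq2). Mki67, the common proliferation marker, had 6.62, 38.3, 84.6, 14.7 and 14.2 CPM with semaglutide, against 87.6, 30.7, 150, 216.3 and 26.2 CPM with saline. Its groups overlapped widely, with saline libraries A229 and A232 the highest. The mitosis count at an unadjusted p under 0.05 was 7 without A229 or A232, 8 without A243, 9 without A238 and 21 without A241.

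Cenpm, a subunit of the centromere complex on chromosome 7 at 113747516 to 113764258, had the smallest p of all genes. It had 1, 0, 0, 0 and 0 counts in the semaglutide libraries, against 13, 12, 115, 19 and 23 counts in the saline libraries. The ratio of semaglutide to saline, scaled by library, was 0.00491 with an exact 95% counting interval of 0.000124 to 0.0277, which leaves out the spread between libraries. The adjusted p was 0.0913 by edgeR and 2.3e-06 by DESeq2.

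Red cell genes and marrow macrophage genes were lower with wide spread. Of 25 erythroid regulators and membrane genes, 22 had lower means, with a median of -1.42 and 15 lower at an unadjusted p under 0.05. That count was 2 without saline library A229, A232 or semaglutide library A243, 3 without A238 or A242, 8 without A240 and 19 without A241. Gata1, the factor that drives red cell and platelet development, had 2.15, 4.04, 8.64, 1.15 and 3.70 CPM with semaglutide, against 5.62, 5.16, 23.1, 17.5 and 7.69 CPM with saline. A229 and A232 were again high, and A241 alone of the semaglutide libraries reached into the saline range. The globin and heme share of counts outside the mitochondrial genes was 1.91 ± 1.57% in semaglutide libraries and 6.10 ± 3.83% in saline libraries (p = 0.0476 by the exact permutation test, 0.0833 adjusted). With 1 library left out that exact p lay between 0.0238 and 0.111.

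Of 18 macrophage genes 16 were lower, 8 at an unadjusted p under 0.05, or 4 without A238 and 5 without A229 or A243. Mrc1, the macrophage mannose receptor, had 1.996, 1.77, 3.12, 2.21 and 2.56 CPM with semaglutide, against 5.80, 3.93, 9.69, 4.92 and 11.5 CPM with saline, with no overlap (log2 fold change -1.61 ± 0.51). Of 21 neutrophil genes 15 were lower, and 0 passed an unadjusted p of 0.05 in either direction. Without A241 that count was 10 lower, with a median of -1.62 against -0.51 with all libraries. The neutrophil share of counts outside the mitochondrial genes was 0.229 ± 0.274% in semaglutide libraries and 0.429 ± 0.137% in saline libraries (p = 0.214 by the exact permutation test, 0.0159 without A241). S100a8, a calcium-binding protein of neutrophils, had 41.8, 191, 701, 144 and 75 CPM with semaglutide, against 509, 273, 592, 422 and 304 CPM with saline. Library A241 held the highest value of all 10, and the other 4 semaglutide libraries lay below all saline libraries. B lymphopoiesis genes also had 0 at that threshold in either direction (21 tested, 13 lower). Endothelial genes gave 0 as well, with 18 of 23 lower and a median of -0.17.

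Fat cell genes differed in direction from each other, with 11 of 18 lower and a median of -0.48. Pparg, the factor that drives fat cell formation, had 0.822, 1.60, 1.41, 1.19 and 1.82 CPM with semaglutide, against 3.31, 3.32, 7.28, 1.59 and 3.57 CPM with saline. Its log2 fold change was -1.47 ± 0.48, with A232 the only saline library inside the semaglutide range. Pnpla2, the lipase that begins the release of stored fat and that muscle also expresses, had 30.9, 64.7, 38.2, 35.2 and 47.8 CPM with semaglutide, against 16.3, 26.9, 11.96, 17.7 and 21.6 CPM with saline. It did not overlap between groups, with a log2 fold change of 1.2 ± 0.42 (adjusted p = 0.393). Adipoq, the fat cell hormone adiponectin, averaged 8.95 ± 7.06 CPM with semaglutide and 14.8 ± 10.5 CPM with saline.

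On average, muscle genes were higher with semaglutide. That direction turned with 2 surrogate variables, the first of which partly follows the groups. All 22 fast-fibre genes and all 15 slow-fibre genes had higher means, with medians of 0.76 and 1.41, and 0 passed an unadjusted p of 0.05 in either list. With 2 surrogate variables the medians were -0.08 and -0.69. Acta1, skeletal muscle actin, on chromosome 19 at 51883715 to 51886742, had 11385, 12494, 9312, 5696 and 12482 CPM with semaglutide. The saline libraries had 3001, 5501, 2678, 5322 and 5455 CPM of Acta1, all below the lowest semaglutide library. It gave a log2 fold change of 1.23 ± 0.71 (adjusted p = 0.506), or -0.15 with 2 surrogate variables. The fast myosin Myh4 had 12041, 3439, 8270, 53.8 and 7199 CPM with semaglutide, against 3738, 3391, 3368, 3756 and 5458 CPM with saline. Library A242 had almost none of it and yet 3596 CPM of the slow myosin Myh7.

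As shares of counts outside the mitochondrial genes, fast muscle genes took 17.2 ± 6.36% with semaglutide and 12.2 ± 3.25% with saline (SD, n = 5 each; p = 0.151 by the exact permutation test). With 1 library left out that exact p lay between 0.0238 (without A242, a difference of 7.47 percentage points) and 0.302 (without A238, 3.35 points), and the difference with all libraries was 5.04 points. The slow muscle share was 5.43 ± 2.97% with semaglutide and 2.44 ± 1.79% with saline (p = 0.0873 by the same exact test). With the fast muscle level as a covariate, the osteoblast matrix count at an unadjusted p under 0.05 was 13, the same as without it, and the erythroid count was 3.

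**Figure D4:**
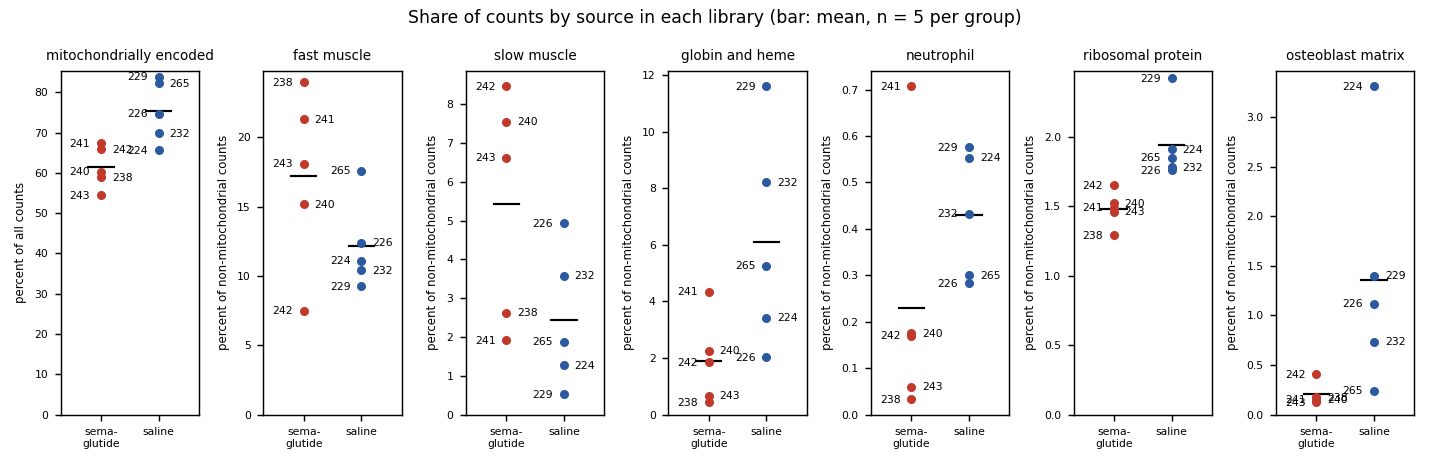
Share of counts taken by 7 groups of genes in each library, in percent of all counts for mitochondrially encoded genes and in percent of the remaining counts for the others, with semaglutide left and saline right. Bars are means (n = 5 each). Ribosomal protein genes separate the groups without overlap, and A224 has the largest osteoblast share, at 3.31%.

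Nuclear genes of the respiratory chain were higher while the mitochondrially encoded genes were lower. All 36 complex I subunits tested had higher means, with a median of 0.58, and 39 of 40 subunits of complexes II to V were higher, with a median of 0.57. With 2 surrogate variables these medians were -0.25 and -0.28. In each list 1 gene was higher at an unadjusted p under 0.05. In 4 of the 36 and in 9 of the 40, all semaglutide libraries lay above all saline libraries. Ndufs8, a complex I subunit, had 30.8, 31.5, 25.6, 31.5 and 37.4 CPM with semaglutide, against 17.0, 12.9, 15.7, 20.2 and 12.3 CPM with saline (log2 fold change 1.01 ± 0.38, adjusted p = 0.393). The exception among complexes II to V was Cox6a1, the form of a cytochrome oxidase subunit found in most tissues, at -0.62 ± 0.18. It averaged 13.8 ± 1.64 CPM with semaglutide and 21.2 ± 3.94 CPM with saline, without overlap. Its muscle and heart counterpart Cox6a2 averaged 257 ± 41.0 CPM with semaglutide and 145 ± 63.3 CPM with saline.

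All 13 mitochondrially encoded genes had lower means, between -0.94 and -0.75 on the log2 scale, with 0 at an unadjusted p under 0.05. Of all counts, they made up 61.4 ± 5.31% in semaglutide libraries and 75.3 ± 7.83% in saline libraries (p = 0.0238 by the exact permutation test, 0.0555 adjusted). With that percentage as a covariate, 386 genes were lower and 137 higher at an unadjusted p under 0.05, against 1106 and 638 without it. In that fit the osteoblast matrix count was 12 of 21, the mitosis count 0 and the complex I median -0.01.

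Genes of fatty acid uptake and oxidation were higher in 30 of 33 cases, with a median of 0.95 and 6 higher at an unadjusted p under 0.05. The median was 0.35 with the mitochondrial percentage as a covariate and -0.08 with 2 surrogate variables. In 8 of the 33, no semaglutide library overlapped the saline libraries. Hadha, the large subunit of the mitochondrial trifunctional protein, had 116, 198, 114, 138 and 174 CPM with semaglutide, against 64.6, 85.2, 38.5, 99.9 and 81.7 CPM with saline. Hadha had a log2 fold change of 1.00 ± 0.44 (adjusted p = 0.407). Acaa2, the thiolase of that pathway, had 1.15 ± 0.49 and the isomerase Eci1 had 1.48 ± 0.63. The count of 6 was 0 without A229 or A240, 1 without A224 or A243, 3 without A242 and 21 when the fit held the 10 libraries alone.

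Of 25 genes of glycolysis and glucose uptake 17 were higher, with a median of 0.51. At an unadjusted p under 0.05, 4 were lower and 1 higher, and 0 in either direction without A229. The median was -0.06 with the mitochondrial percentage as a covariate and -0.09 with 2 surrogate variables. Hk2, the hexokinase of muscle and fat, had a log2 fold change of 0.86 ± 0.37, averaging 9.82 ± 1.98 CPM with semaglutide and 5.41 ± 2.11 CPM with saline. Hk1, the form of blood and most other cells, had -1.27 ± 0.49 and averaged 10.8 ± 5.67 CPM with semaglutide and 26.0 ± 11.3 CPM with saline.

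**Figure D5:**
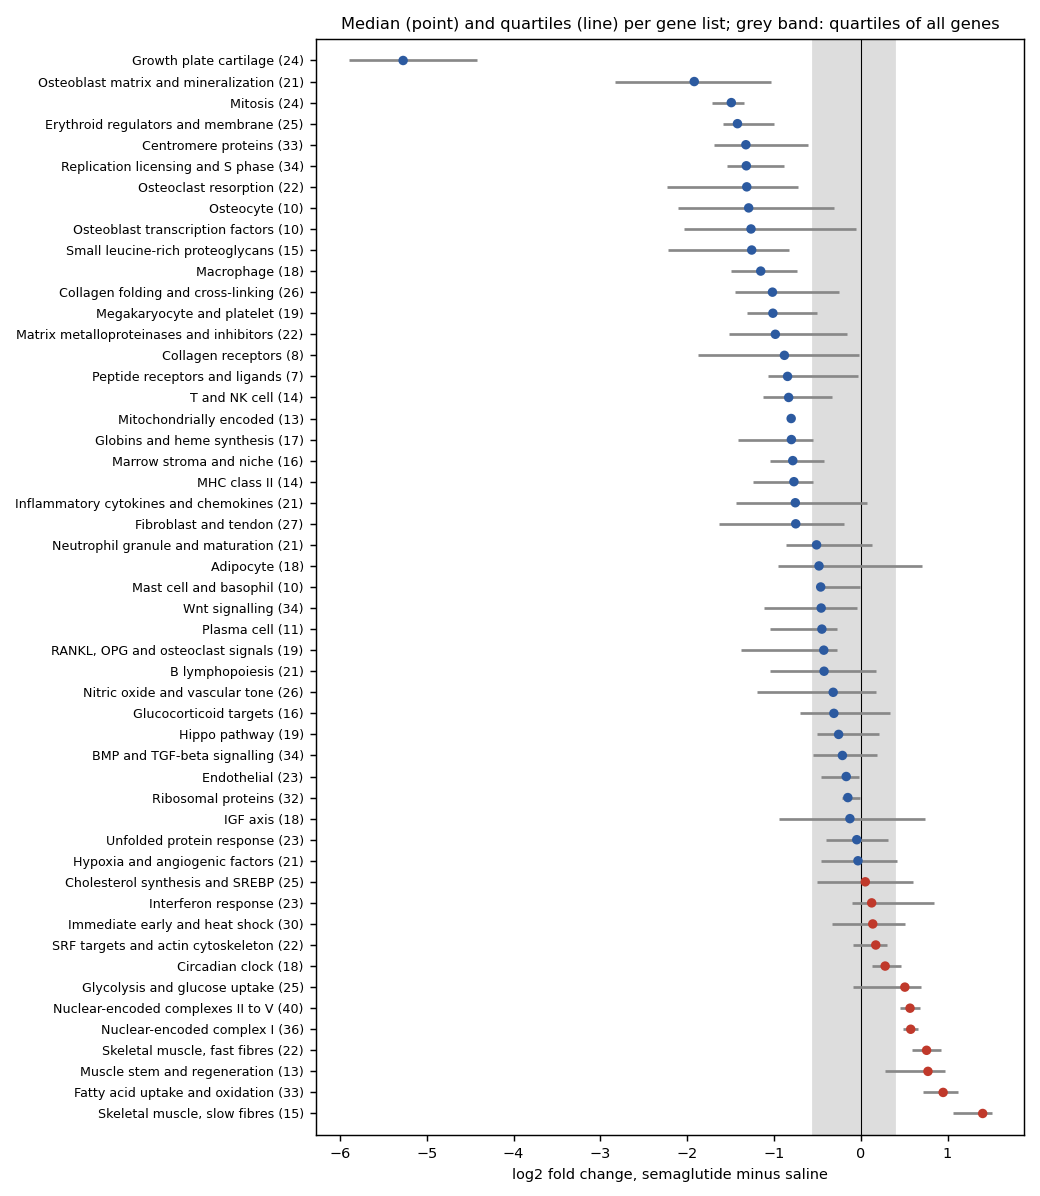
Median and quartiles of the log2 fold change (semaglutide minus saline) of the tested members of 51 gene lists, with the number tested in brackets. The grey band spans the quartiles of all 15271 genes. Cartilage lies farthest left at -5.27 and slow muscle farthest right at 1.41.

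The genes with the smallest p among those higher with semaglutide were not on the muscle lists. Whether their levels follow the muscle content of the libraries was not tested. Eif4g3, a scaffold of translation initiation on chromosome 5 at 150195226 to 150418363, had 70.2, 67.8, 72.2, 57.6 and 55.7 CPM with semaglutide, against 47.8, 34.3, 27.2, 38.3 and 36.3 CPM with saline. Its log2 fold change was 0.81 ± 0.19 (adjusted p = 0.371 by edgeR, 0.0027 by DESeq2). Bag6, a chaperone for proteins bound for the membrane or for degradation, on chromosome 20 at 3675938 to 3688657, had 46.5, 41.1, 34.5, 43.4 and 41.1 CPM with semaglutide. The saline libraries had 24.4, 22.7, 23.4, 25.8 and 21.6 CPM of Bag6, a narrow range that lay wholly below (log2 fold change 0.81 ± 0.21). These 2 genes had log2 fold changes under 1, yet no library of one group reached the other.

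Srf, serum response factor, the regulator of actin and muscle genes whose upstream sequence is given above, is on chromosome 9 at 14426472 to 14435733. It had 36.5, 27.8, 24.1, 26.1 and 34.8 CPM with semaglutide, against 18.5, 16.6, 17.7, 18.3 and 13.5 CPM with saline. The groups did not overlap, and the log2 fold change was 0.82 ± 0.21 (adjusted p = 0.371 by edgeR, 0.0381 by DESeq2). Leaving out 1 library at a time kept it between 0.75 and 0.89. Of 22 genes tested on the list of SRF targets and the actin cytoskeleton, 14 had higher means and the median was 0.17. At an unadjusted p under 0.05, Srf was the 1 gene higher and 1 gene was lower. Egr1, an immediate early SRF target, averaged 20.3 ± 4.01 CPM with semaglutide and 25.3 ± 4.87 CPM with saline.

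The other genes among the 12 with the smallest p on the higher side were Mtrr, Eif4g1-ps1, Cux1, Vars1, Ntpcr, Slc25a44, Abtb3, Dip2c and Stk40. Cux1, a homeobox factor, had 20.9, 30.3, 25.5, 22.9 and 26.7 CPM with semaglutide, against 15.8, 20.2, 14.5, 18.1 and 14.5 CPM with saline, and DESeq2 called it higher too (adjusted p = 0.0375). Vars1, the valine tRNA ligase, had a log2 fold change of 1.07 ± 0.31. Slc25a44, a mitochondrial carrier of branched-chain amino acids, had 0.83 ± 0.24, and Mtrr, which keeps methionine synthase active, had 1.05 ± 0.28. Eif4g1-ps1 is named as a pseudogene, and how reads shared with its parent gene were counted is not stated. The parent gene Eif4g1 had a log2 fold change of 0.70 (adjusted p = 0.393 by edgeR). Abtb3 had 77 counts over the 5 semaglutide libraries and 0 in all saline libraries. Against a floor of 3 counts over the saline group it was at least 22.9-fold higher.

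On the lower side, genes of that rank not yet described included Bet1, Akap7 and Ccn5. Bet1, a SNARE protein of transport between endoplasmic reticulum and Golgi, had a log2 fold change of -0.93 ± 0.22, without overlap between the groups. Akap7, an anchor of protein kinase A, had -1.02 ± 0.24, and Ccn5, a matricellular protein, had -2.96 ± 0.73.

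Pathways of diet, hormone and Wnt signalling were counted in the same way. Of 25 cholesterol synthesis genes, 12 were lower and 13 higher, with a median of 0.05 and 3 higher at an unadjusted p under 0.05, or 1 without A229, A232, A240 or A243. Of 18 circadian clock genes 15 were higher, with a median of 0.28 and 0 at that threshold. Of 16 glucocorticoid targets, 10 were lower and 3 passed an unadjusted p of 0.05, all lower, Sgk1 at -0.60 ± 0.25 among them. That count was 1 without A232 and 6 without A226. Of 18 IGF axis genes, 10 were lower, and Igfbp3, the main carrier of IGF, had -0.94 ± 0.40. Of 34 Wnt genes, 26 were lower and 8 passed an unadjusted p of 0.05 on the lower side and 1 on the higher side, with a median of -0.46. The lower count was 4 without A224 and 5 without A243. Lrp5, a Wnt co-receptor, had 0.38 ± 0.31. Of 32 ribosomal protein genes 25 were lower with a median of -0.15, and as a share of counts outside the mitochondrial genes they took 1.48 ± 0.132% with semaglutide and 1.94 ± 0.27% with saline. That share did not overlap between groups (exact permutation p = 0.00794, the smallest that 5 against 5 libraries allow, adjusted p = 0.0555).

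The receptor for semaglutide was not detected in these extracts. Glp1r had 0 counts in all 10 libraries, which allows up to 0.0934 to 0.146 CPM per library (3 counts of the total). These limits leave out the TMM factor, unlike the other CPM values. Gipr, the receptor of the related gut hormone GIP, had 0 counts as well.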

How the data were processed

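Poly(A) RNA of femora was sequenced. The authors deposited a table of raw read counts per gene and another of FPKM values (scaled by gene length and library size), both for all 23 libraries. The submitters' processing notes name the genome build mRatBN7.2 and the tool DESeq2 1.42.0. No source used here gives the aligner, the counter or its use of strand. Counts were tested with edgeR 4.0.16 (R 4.3.3; TMM scaling, filterByExpr, robust quasi-likelihood fit of 5 groups over 23 libraries) with Benjamini-Hochberg adjustment over all genes tested. DESeq2 1.42.0, limma 3.58.1 (voom, with and without library weights) and sva 3.50.0 gave alternatives. The weighted voom fit was chosen after seeing the data. Deposited FPKM values were averaged only to compare levels between genes. The rule for named genes took the 12 of smallest p on each side, the lead genes of each list and the 3 of smallest p in each list. Not all of these are printed, and which to print was chosen after their values were seen, as were the other genes named. The members and lists were chosen with earlier results of these data known. Shares of counts were compared by exact permutation tests over 10 libraries. The edgeR test alone was run on simulated counts. Those counts varied independently between genes, and apart from the genes changed every library had the same makeup. The simulation therefore does not cover the differences in makeup between the libraries described here.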

Additional observations from a re-analysis of the deposited data

Results flagged for a closer look

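Dixon's gap test was run on 268 groups. Normally distributed values meet it in about 1 of 20 groups. Gene levels were tested as CPM without a log, so that rate need not hold for them. The 28 values below stood far from the other 4 libraries of their group by this test. In semaglutide library A242 these were the highest Col1a2 (303 CPM), Bglap (28.8), Timp1 (2.5), Plod2 (45.8), Fkbp10 (5.9), Col6a3 (27.6) and Igfbp3 (11.9 CPM), the highest osteoblast matrix share (0.41% of counts outside the mitochondrial genes) and the lowest fast muscle level (8.15 in log2 CPM).

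In semaglutide library A241 they were the highest Mmp9 (53.1 CPM), Csf1r (11.4), Mmp13 (56.4), Ppib (23.3), S100a8 (701) and Abtb3 (1.29 CPM), the highest neutrophil share (0.707%) and the highest osteoclast level (2.56 in log2 CPM). In semaglutide library A238 it was Cenpm, at 0.0391 CPM with the others at 0.

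In saline library A224 they were the highest Col1a1 (2934 CPM), Ckb (63.6), Tnfrsf11a (7.88) and Csf1r (23.9 CPM) and the highest plasma cell level (2.15 in log2 CPM). In saline library A229 they were Cenpm (7.68 CPM), Ddr2 (30.0), Chaf1a (10.8 CPM) and the ribosomal protein share (2.42%). In saline library A265 it was Myh4, at 5458 CPM.

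Ddr2 also differed between the drugs, with a log2 difference of -2.43 between semaglutide and PYY (adjusted p = 0.0014 by edgeR).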

How the results depend on the processing

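Of 76 named genes, 66 kept their direction in every alternative that gave a value (21, but 20 for Cenpm and Abtb3 and 19 for Mmp12). No paired analysis was possible because the groups share no replicate numbers. edgeR called 0 genes without any 1 library, DESeq2 called 80 and weighted voom 176. Genes lower at an unadjusted p under 0.05 numbered 386 with the mitochondrial percentage as a covariate, 347 with 2 surrogate variables, 2086 by weighted voom and 731 to 1544 with 1 library left out. Genes higher numbered 1229 with the 10 libraries alone, 137, 211 and 1661 in those 3 fits, and 361 to 684 with 1 library left out. Leaving out 1 library gave 289 to 717 genes with semaglutide wholly below and 452 to 815 wholly above.

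With 2 surrogate variables the median log2 fold change was -0.304 for cartilage, -0.368 for osteoblast matrix, -0.287 for osteoclasts, -0.0819 for fatty acid oxidation, -0.249 for complex I, -0.28 for complexes II to V, -0.0815 for fast and -0.69 for slow muscle, -0.41 for muscle stem cells, -0.0909 for glycolysis, 0.129 for osteocytes, 0.0384 for collagen folding, 0.0539 for collagen receptors, 0.0269 for metalloproteinases, 0.505 for T and NK cells and 0.662 for B lymphopoiesis. That fit gave 0.887 for Col2a1, 3.59 for Tnfsf11, 0.368 for Csf1, 0.0719 for Serpinh1, -0.151 for Acta1, -0.08 for Myh4, -0.537 for Myh7, -0.522 for Cox6a2 and -0.0271 for Hadha. Because the first surrogate variable partly follows the groups, these values cannot separate an adjustment from removal of the group difference.

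With the mitochondrial percentage the median was 0.352 for fatty acid oxidation, -0.00837 for complex I, -0.0639 for glycolysis, 0.265 for B lymphopoiesis, 0.214 for megakaryocytes, 0.244 for neutrophils, 0.0265 for mitochondrially encoded genes and 0.128 for peptide receptors. Sost had 0.312, Tnfsf11 0.0986 and Myh4 -0.295. With the muscle level B lymphopoiesis had 0.265, glycolysis -0.0088 and Myh4 -0.669. limma voom gave 0.581 for Sost and -0.526 for Myh4, and weighted voom 0.349, -0.0524 and an adipocyte median of 0.16. Leaving out 1 library moved the osteoclast median between -2.21 and -0.896, that of Sost between -0.841 and 0.258 (without A232) and that of Tnfsf11 between -0.9 and 0.716 (without A224; 0.0352 without A238). The mitochondrial percentage was computed from the mitochondrially encoded genes, so their own median in that fit was largely set by the covariate. The muscle level was computed from fast-fibre genes, so the value of the fast myosin Myh4 in that fit is no independent check. The cause of the other shifts was not tested. Sost and Tnfsf11 were scarce and uneven between libraries. Among saline libraries, Sost ran from 0 CPM in A265 to 4.27 CPM in A232. Tnfsf11 ran from 0 CPM in A265 to 3.03 CPM in A224.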
